A study of Caenorhabditis elegans with 2 samples.

Results

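The regions described here are the candidate LIN-11 binding regions at promoters of the *Caenorhabditis elegans* X chromosome. They were taken from the region list that the authors called on the pooled reads of both replicates (ce11 assembly). A region was kept when it lay on X and its summit, the position of highest signal, fell in a promoter window. This window reached 1000 bp upstream and 200 bp downstream of the start of any protein-coding transcript in the Ensembl annotation of WBcel235. Of the 30000 pooled regions, 1542 met the rule. Of these, 227 were also in the authors' optimal list, the set kept by the irreproducible discovery rate procedure, and 1315 were not. These are called optimal and other X promoter regions. The optimal list held exactly the 1917 pooled regions of highest signal, so optimal against other is a comparison of strong with weaker regions of the same list, and their signals are given as a description.

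The experiment was chromatin immunoprecipitation followed by sequencing (ChIP-seq), which maps the DNA that is recovered with a protein. Whole larvae of strain OP62 at stage L2, the second of the larval stages, were used, with males and hermaphrodites pooled (the label says male and female). The strain carries the unc-119(ed3) mutation on III and the transgene wgIs62, from which LIN-11 with GFP and FLAG at its C terminus is stably expressed. As antibody target the labels give LIN-11, and elsewhere they mention an eGFP fusion, so whether protein from the gene's own locus was recovered as well cannot be told. There was 1 group with 2 biological replicates, whose larvae came from different sources: the Michael Snyder laboratory for replicate 1, whose label names sonication with a microtip, and the CGC for replicate 2, whose label gives fragments of 150 to 350 bp. The sources used here do not give what drives the transgene, the read depth, the peak caller or its threshold, and control libraries were not analysed here. The depth behind each value is therefore unknown, and all share intervals below are 95% intervals that cover the counting of regions or genes only, which are not replicates of the experiment.

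A promoter is the sequence around and upstream of a gene's start where regulatory proteins and RNA polymerase assemble. The X chromosome of *C. elegans* is present in 2 copies in hermaphrodites and 1 in males, and in hermaphrodites a dosage compensation complex binds both copies and lowers their transcription. LIN-11, a transcription factor of the LIM homeodomain family, is known for its roles in the vulva, the uterus and neurons, and homeodomain proteins commonly bind sites with a TAAT core. Many *C. elegans* transcripts receive a spliced leader at their first exon, so an annotated start can lie downstream of the site where transcription begins.

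The sequences at the strongest X promoter summits show, in place, the words whose share differed most from that at the other X promoter summits. Each line gives the summit base and 50 bp on each side of it, on the plus strand of WBcel235, for the 8 strongest regions that hold at least 1 of the 6 leading 6-base words described below. Capitals mark those words, on either strand, and overlapping words run together. In order, they lie at X:5841251-5841351, X:2242947-2243047, X:7823217-7823317, X:14818971-14819071, X:1446904-1447004, X:7334466-7334566, X:4389027-4389127 and X:6092150-6092250.
puf-9: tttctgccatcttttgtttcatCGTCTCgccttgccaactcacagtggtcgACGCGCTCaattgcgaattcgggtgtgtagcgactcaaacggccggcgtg
rpl-11.2: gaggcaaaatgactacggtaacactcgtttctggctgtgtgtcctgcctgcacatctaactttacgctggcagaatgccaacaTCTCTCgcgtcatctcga
eef-1A.2: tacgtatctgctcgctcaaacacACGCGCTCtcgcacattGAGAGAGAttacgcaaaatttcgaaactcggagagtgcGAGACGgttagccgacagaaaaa
epn-1: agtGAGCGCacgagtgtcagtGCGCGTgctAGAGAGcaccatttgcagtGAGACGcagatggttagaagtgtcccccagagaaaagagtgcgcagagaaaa
zfp-3: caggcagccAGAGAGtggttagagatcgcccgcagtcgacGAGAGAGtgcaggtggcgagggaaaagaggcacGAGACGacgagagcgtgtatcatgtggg
epg-7: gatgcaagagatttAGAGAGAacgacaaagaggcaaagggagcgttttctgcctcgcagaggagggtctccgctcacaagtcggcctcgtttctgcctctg
dpy-23: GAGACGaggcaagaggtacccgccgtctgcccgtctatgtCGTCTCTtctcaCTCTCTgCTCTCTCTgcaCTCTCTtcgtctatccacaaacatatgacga
hsp-3: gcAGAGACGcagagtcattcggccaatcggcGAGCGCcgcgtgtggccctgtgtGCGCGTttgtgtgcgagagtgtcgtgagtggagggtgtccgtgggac

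Recurrent in these lines are runs of alternating G and A (read as C and T from the opposite strand) and short words with CGCG or GCGC. The *eef-1A.2* summit holds 5 of the 6 words, those of *epn-1*, *dpy-23* and *hsp-3* hold 4, those of *puf-9* and *zfp-3* hold 3, and that of *epg-7* holds 2. The *dpy-23* line has 33 bases inside the words, the most of the 8, and the *rpl-11.2* line has 6, a single GAGAGA on the opposite strand.

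X promoter regions were in the optimal list more often than the pooled list as a whole, but no more often than those of some autosomes. Of the X promoter regions, 14.7% (Wilson interval 13.04% to 16.6%) were optimal, against 12.7% of 8021 autosomal promoter regions and 6.39% of all pooled regions. The difference between X and the autosomes was 2.05 percentage points (Newcombe interval 0.216 to 4.04). Chromosome by chromosome the autosomal share ran from 9.90% on V to 15.9% on III, so X lay within their range. Away from promoters, 177 of 3863 X regions (4.58%) were optimal. Along X, cut into 10 stretches of equal length, the optimal share of promoter regions ran from 11.3% in the third stretch to 20.5% in the ninth, where 38 of 185 regions were optimal. The median distance from an optimal X promoter summit to the nearest other optimal summit on X was 13635 bp, and 10 of the 227 had such a neighbour within 1000 bp.

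Signal, the authors' own value per region, spanned a wide range within the optimal X promoter regions. In the pooled list the optimal regions ran from 27.9 to 193.8 with a median of 45.9, and the other regions from 5.43 to 27.8 with a median of 8.90. The median optimal X promoter region had a pooled signal close to that of the 1016 autosomal ones, 45.9 against 49.3, and the highest on X, 193.8, was below the highest autosomal one, 356.0. No gap in signal marked the end of the optimal list on X. Just inside its end were the regions at *C29F7.2*, *nhr-40*, *C15H9.4*, *ZK816.3* and *snx-1*, the last with a signal of 27.8903, and just outside it were those at *C24H10.2* with 27.8229, then *hlh-13*, *sto-4*, *W05H9.4* and *lnp-1*.

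Most optimal X promoter regions were found in each replicate on its own. A replicate summit lay within 100 bp of 209 of the 227 optimal regions in replicate 1 (92.1%) and of 220 in replicate 2 (96.9%), against 668 (50.8%) and 787 (59.8%) of the 1315 other regions. Both replicates had a summit at 203 optimal regions (89.4%) and at 330 other regions (25.1%). Because the replicates' reads are part of the pooled reads and of the procedure that set the optimal list, these shares describe how the list was built and are not an independent check. A stricter count asked whether the match was among the 1917 regions of highest signal in that replicate. It was for 159 optimal regions in replicate 1 (70.0%) and 190 in replicate 2 (83.7%), against 34 and 30 of the other regions. The same was true of 6.03% of all pooled regions for replicate 1 and 6.23% for replicate 2. Strong matches in both replicates were present for 131 optimal regions (57.7%), in replicate 1 alone for 28, in replicate 2 alone for 59 and in neither for 9. On the autosomes 62.8% of optimal promoter regions had strong matches in both, a difference of -5.09 points for X minus autosomes (interval -12.2 to 1.85).

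**Figure D1:**
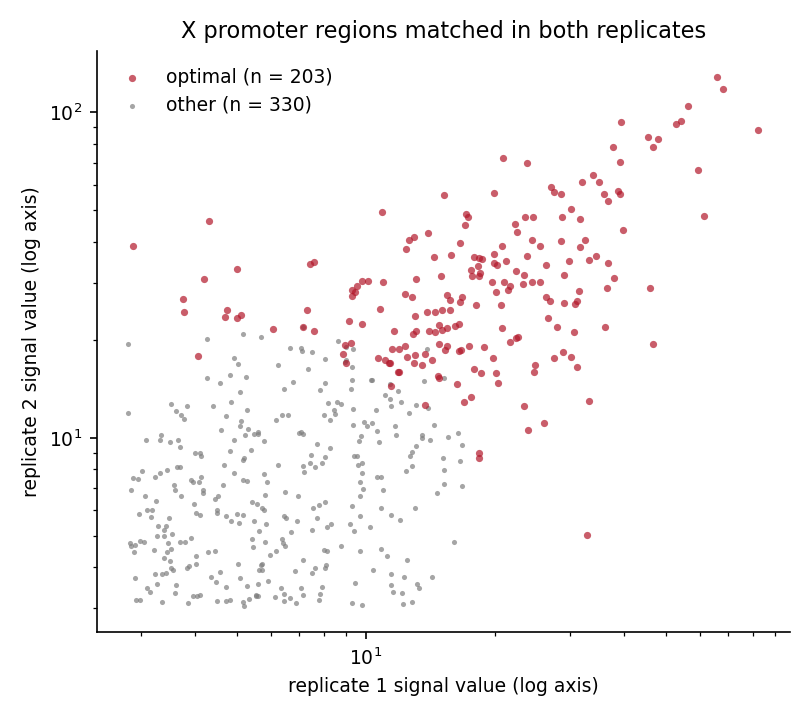
Signal value in replicate 1 (x axis, log) and in replicate 2 (y axis, log) for X promoter regions with a summit within 100 bp in both lists, 203 optimal (red) and 330 other (grey). Optimal regions reach 82.2 in replicate 1 and 128.3 in replicate 2, and some of them have a low signal in 1 replicate. The lists are on separate scales.

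Some optimal regions rested largely on 1 replicate, and the 2 with the largest rank difference in each direction are given first. The region upstream of *F31B12.3*, which lies within 100 bp of a tRNA gene, ranked 544 in replicate 2 and 29134 in replicate 1. That of *sdc-2*, a gene needed to bring the dosage compensation complex to X, ranked 1050 in replicate 2 and 21287 in replicate 1. In the other direction, the weaker of 2 regions at *ain-1*, which encodes a GW182-like partner of microRNAs, ranked 296 in replicate 1 and 15060 in replicate 2. The stronger *ain-1* region, which overlaps it, ranked 176 in replicate 1 and 240 in replicate 2. The region at *R04A9.3* ranked 1005 in replicate 1 and 5347 in replicate 2. In all, 24 optimal X promoter regions had no match within 100 bp in at least 1 replicate, a number that was 3 with a match within 200 bp and 66 within 50 bp. The strongest of the 24 were at *bet-2* (pooled signal 72.1), which encodes a bromodomain protein, at *cebp-1* (69.9), a bZIP transcription factor, and at *kin-29* (66.8), a salt-inducible kinase; at 100 bp all 3 were matched in replicate 2 and not in replicate 1, and at 200 bp in both. Within 100 bp, the region at *gakh-1*, with a pooled signal of 28.5, was matched in neither; within 200 bp each optimal region was matched in at least 1 replicate.

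The 20 strongest X promoter regions lay at genes of varied function. The highest was 291 bp upstream of *puf-9* (X:5841265-5841402), which encodes a Pumilio-family RNA-binding protein. Its signal was 193.8 in the pooled list, where it ranked 14 of 30000. In replicate 1 the signal was 65.8 (rank 21) and in replicate 2 it was 128.3 (rank 12), so both replicates placed it near the top. Next came *rpl-11.2*, a protein of the large ribosomal subunit, with a pooled signal of 184.5, 379 bp upstream of its start, and *eef-1A.2*, translation elongation factor 1 alpha, with 169.1 at 387 bp upstream. In replicate 1 *rpl-11.2* had 68.1 and in replicate 2 118.2.

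The region 749 bp upstream of *nspc-17* reached 159.9 in the pooled list, 56.4 in replicate 1 and 104.9 in replicate 2. This gene belongs to a family of nematode-specific peptides whose 18 annotated genes all lie on X, so reads from similar copies may be shared, which was not tested. Among the strong regions that followed, *epn-1*, the endocytic adaptor epsin, had 149.9. The region of *uggt-1*, a glucosyltransferase of protein quality control in the endoplasmic reticulum, had 134.1. That of *dpy-23*, the mu subunit of the AP-2 clathrin adaptor, had 129.7. Further down, *hsp-3*, a BiP-type chaperone, had a pooled signal of 126.4 at 76 bp upstream, and *pdi-6*, a protein disulfide isomerase, had 97.1 at 21 bp upstream. The zinc-finger gene *zfp-3* had 144.9 and the autophagy gene *epg-7* had 129.8.

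The rest of the 20 strongest were at *R04E5.9* (124.3), *T13C5.6* (121.3), the insulin-like gene *ins-39* (106.8), *serp-1.1* (105.8), the alpha spectrin gene *spc-1* (100.8), *ZC506.1*, the pair *C27C12.1* and *C27C12.4* (93.5), the kinesin-like gene *klp-13* (91.8) and *F46H5.2* (91.1). Each of the 20 was matched in both replicates. The replicates placed some of them apart. The *ins-39* region ranked 33 in replicate 1 (signal 61.3) and 355 in replicate 2 (signal 48.0). That of *C27C12.1* and *C27C12.4* ranked 622 in replicate 1 and 130 in replicate 2.

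**Figure D2:**
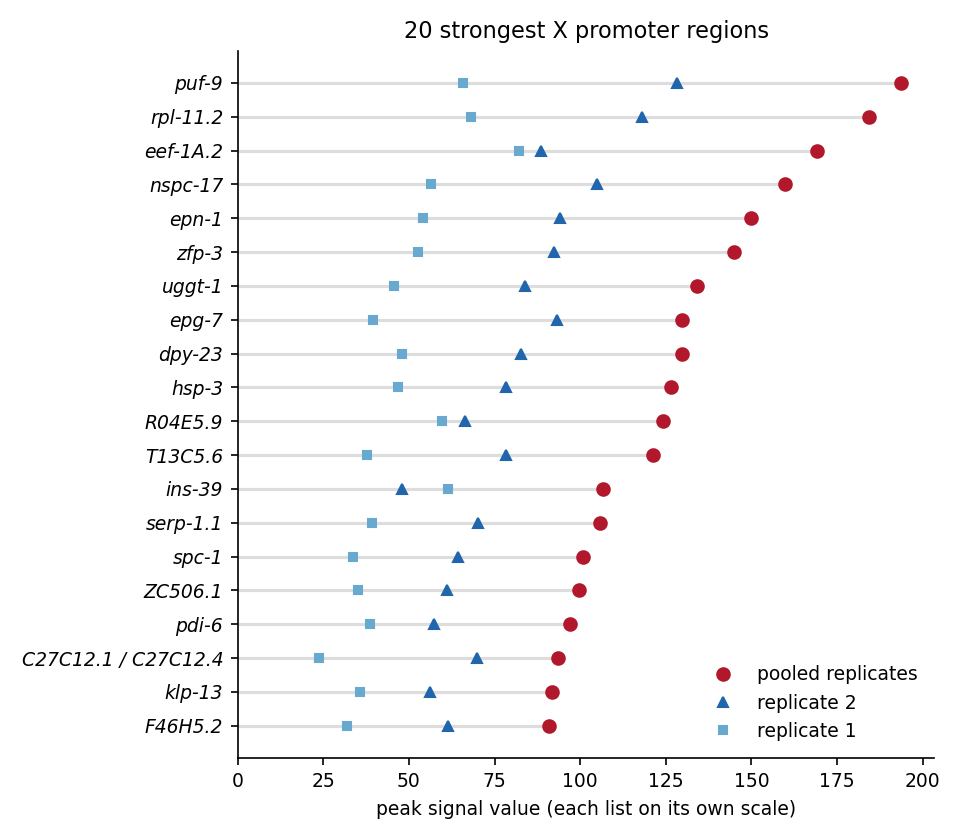
Signal value (x axis) of the 20 strongest X promoter regions, named by the gene or genes of the promoter window (y axis), in the pooled list (red circles), replicate 2 (dark triangles) and replicate 1 (light squares). Every region has a value in each replicate, and the pooled values run from 193.8 at puf-9 to 91.1 at F46H5.2; the 3 lists have separate scales.

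Optimal summits lay mainly upstream of the annotated start, in intergenic sequence. Their median position was -252 bp (quartiles -454 and -125, negative meaning upstream), against -226 bp for the other regions (quartiles -560 and -10), so the medians were close and the spread differed. At or downstream of the start lay 5.29% of optimal summits and 23.7% of other summits, a difference of -18.4 points (interval -21.7 to -14.1). In the 200 bp just upstream lay 38.8% of optimal and 24.4% of other summits. Intergenic sequence held 73.1% of optimal summits against 45.1% of other summits. No optimal summit lay in a coding exon, 0 of 227, which at 3 counts of the total allows a share of up to 1.32%, against 267 of the 1315 other summits (20.3%). Introns held 10.6% of optimal and 18.9% of other summits, and untranslated regions 4.85% and 9.20%. Exon sequence outside these and coding exons went the other way, with 11.5% of optimal and 6.54% of other summits. A tRNA gene lay within 100 bp of 8 optimal (3.52%) and 18 other summits (1.37%).

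Optimal summits on X lay farther upstream of the nearest transcript start than those on the autosomes. The median was -252 bp on X and -181 bp over the autosomes, whose separate medians ran from -170 to -210 bp. Where several genes' windows held a summit, the nearest start was used. This applied to 41.2% of autosomal and 9.69% of X optimal regions, and how far it shortened the autosomal distances was not tested. The share within 200 bp upstream was 38.8% on X and 47.0% on the autosomes, a difference of -8.28 points (interval -15.1 to -1.12), and the share at or downstream of the start differed by -1.41 points (interval -4.22 to 2.57). The median position on X depended on the length of the promoter window, which bounds it, and was -187 bp with 500 bp upstream and -314 bp with 2000 bp upstream.

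**Figure D3:**
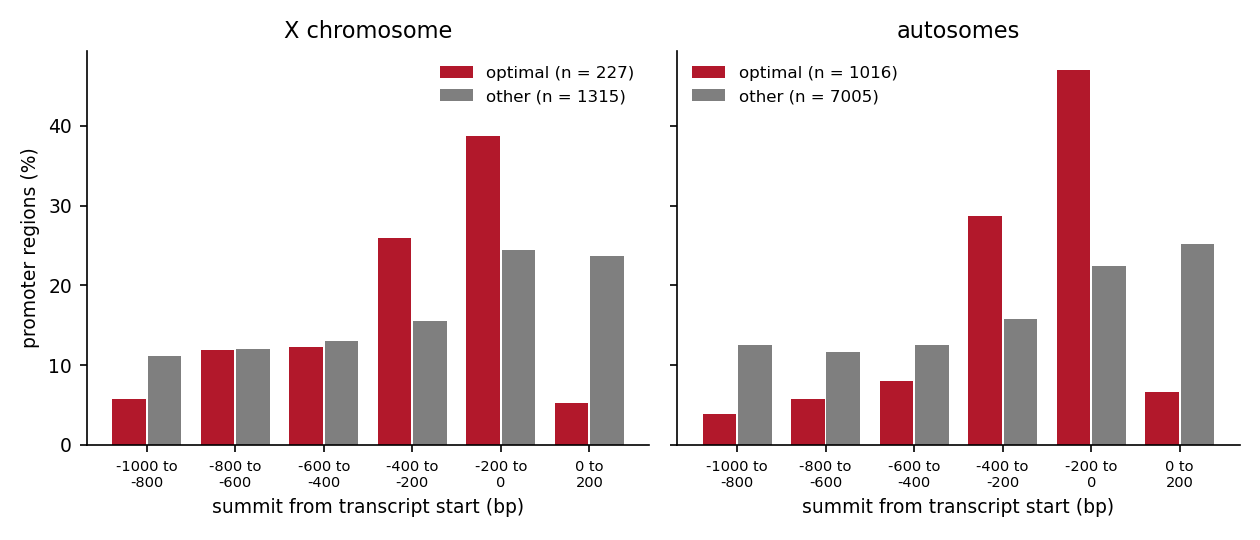
Share of promoter regions (y axis, %) by the summit's position from the nearest transcript start in 200 bp steps (x axis, negative upstream) for X (left) and the autosomes (right), optimal in red and other in grey. In the last step, at or downstream of the start, lie 5.29% of optimal and 23.7% of other X summits.

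Few optimal X promoter regions lay in the windows of more than 1 gene. A summit lay in the windows of 2 genes for 22 of the 227 optimal regions (9.69%), and in those of 2 or 3 genes for 56 of the other X regions (4.26%), a difference of 5.43 points (interval 2.001 to 10.1). In 20 of the 22 the genes lay on opposite strands. On the autosomes the shared share was 41.2% of 1016 optimal regions and 13.4% of the other regions. X minus autosomes was -31.5 points for optimal regions (interval -36.0 to -26.1), and no autosome had a share below 38.1%. Protein-coding genes were also sparser on X, at 154 per Mb against 188 to 239 on the autosomes; the part of gene density in the difference was not tested. The shared region of highest signal on X, 93.5, lay between *C27C12.1* and *C27C12.4*. Next were the region of *ile-2* and *trap-2* (86.3), of which *trap-2* encodes a translocon-associated protein, and that of *C28G1.2* and *sec-15* (81.5), of which *sec-15* encodes an exocyst subunit.

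**Figure D4:**
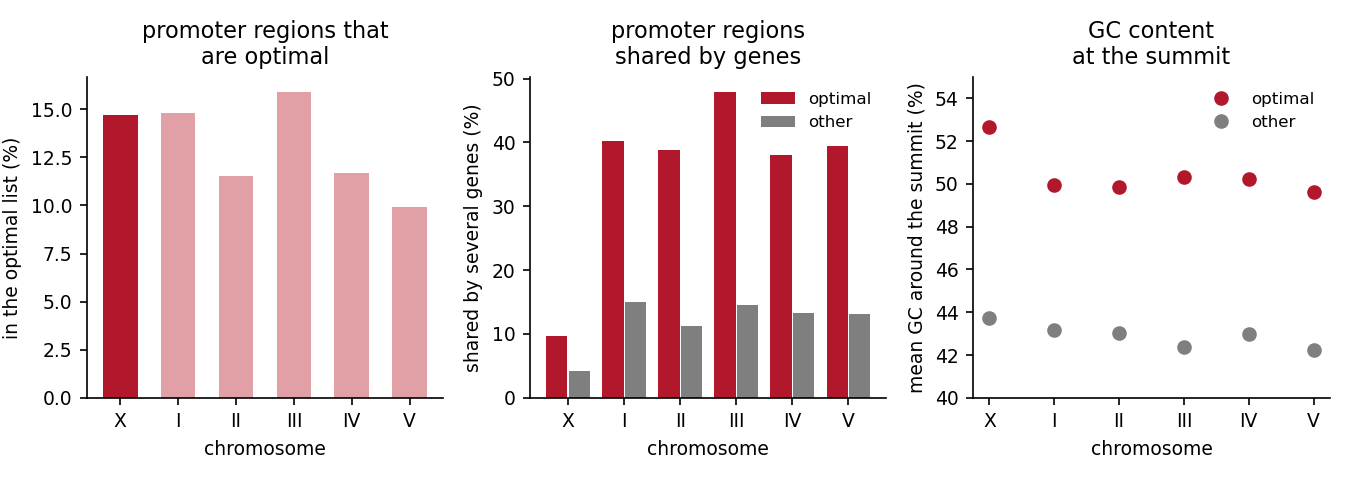
For each chromosome (x axis, X at the left), the share of promoter regions in the optimal list (left, %), the share of optimal (red) and other (grey) promoter regions in the windows of several genes (middle, %) and the mean GC content at their summits (right, %, axis from 40). X has 9.69% shared optimal regions, against 38.1% to 47.9% on the autosomes, and the highest mean GC of optimal summits, 52.7%.

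Optimal X summits were richer in G and C. The mean GC content of the summit base with 50 bp on each side was 52.7% ± 5.47 in optimal regions and 43.7% ± 8.43 in other regions (SD over 227 and 1315 regions). In autosomal promoters it was 50% ± 5.85 in optimal and 42.8% ± 8.45 in other regions, and the means of single autosomes ran from 49.6% to 50.3% in optimal regions. Within X the mean followed the signal. Ranked by signal and cut into 4 equal sets, the optimal regions averaged 54.5% in the strongest set (57 regions) and 51.2% in the weakest (56 regions). The other regions averaged 47.7% in their strongest set (329 regions) and 40.9% in their weakest (328 regions).

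Words of alternating G and A were the commonest difference in letters between optimal and other X summits. The word GAGAGA, searched on both strands, was present at 75 of 227 optimal summits (33.0%) and 141 of 1315 other summits (10.7%), a difference of 22.3 points (interval 16.3 to 28.9). On the autosomes it was present at 21.9% of optimal and 9.84% of other promoter summits, and at 18.7% to 24.2% of optimal summits on single autosomes. Away from promoters on X it was present at 28.2% of 177 optimal and 6.78% of 3686 other summits, so the difference was not particular to X promoters. The difference of X minus autosomal optimal summits was 11.2 points (interval 4.82 to 18.0), and that of the other summits was 0.887 points (interval -0.831 to 2.80). Because GC content differed between the sets, the word was also counted within ranges of GC content. Among summits of 45% to 55% GC, GAGAGA was present at 39.2% of 130 optimal and 16.8% of 501 other X summits, and at 23.1% of autosomal optimal summits. At 55% to 65% GC the X optimal share, 25% of 72, was close to the autosomal optimal share, 27.2% of 191.

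The 8 words named next were ranked among 2080 6-base words by their difference between optimal and other X summits, so their shares within X are a description. Besides GAGAGA, the highest were AGAGAG (31.7% of optimal against 9.58% of other summits), which overlaps it, AGAGAC (25.6% against 6.16%), GAGCGC (22.0% against 4.26%), ACGCGC (20.7% against 3.50%) and CGTCTC (22.9% against 6.16%). At least 1 of these 6 words was present at 164 optimal summits (72.2%) and 320 other summits (24.3%). They were absent from 5 of the 20 strongest summits, those of *nspc-17*, *uggt-1*, *ins-39*, *serp-1.1* and *F46H5.2*. Not every word was commoner on X than on the autosomes: ACGCGC was present at 20.7% of X and 19.6% of autosomal optimal summits (difference 1.12 points, interval -4.29 to 7.31) and CGTCTC at 22.9% and 19.4% (difference 3.52 points, interval -2.08 to 9.85). The lowest were AAAAAT (8.37% of optimal against 24.8% of other X summits) and TGAAAA (5.73% against 22.0%).

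Words of known sites were mostly rarer at optimal X summits. The homeodomain word TAATTA was present at 0 of 227 optimal summits, which at 3 counts allows a share of up to 1.32% (Wilson upper limit 1.66%), against 33 of the other X summits (2.51%) and 2.39% of all pooled regions. Autosomal optimal summits held it at 1.48%, and the difference of X minus autosomes had an interval of -2.42 to 0.286 points. TAATTG was present at 3.08% of optimal and 6.01% of other X summits (difference -2.92 points, interval -5.05 to 0.427). TTTCAG, the usual end of a *C. elegans* intron and of a trans-splice acceptor, was present at 0.881% of optimal and 12.5% of other X summits, and at 6.30% of autosomal optimal summits. The word of GATA factors, TGATAA, was present at 0.881% of optimal and 7.83% of other X summits. The word of the TATA box, TATAAA, was at 1.32% and 6.54%, and CCAAT was at 11.9% and 19.4%. All of these hold more A and T than G and C, and optimal summits were richer in GC. Between 45% and 55% GC, TTTCAG was present at 1.54% of optimal and 9.18% of other X summits and TGATAA at 0.769% and 5.79%. Between the same bounds of GC, counts added after seeing the data, the TATAAA difference was -0.258 points (interval -2.19 to 3.73), against -5.22 points over all GC, and that of TAATTA was -1.20 points (interval -2.59 to 1.74). TGACGT, a bZIP word, was commoner, at 8.37% of optimal and 4.49% of other X summits, but within these bounds its difference was 0.565 points (interval -3.26 to 6.34). With pooled regions strong in replicate 1 in place of the optimal ones it was 1.92 points (interval -1.12 to 6.48). The CCAAT difference, -7.50 points, was -2.54 points after the same replacement (interval -7.55 to 3.619). CACGTG, the E-box word, was at 2.203% and 3.04%, with an interval of the difference from -2.49 to 2.12 points.

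The core of the word that marks recruitment sites of the dosage compensation complex, CGCAGGG, was rare but commoner at optimal summits. It was present at 7 optimal (3.08%) and 3 other X promoter summits (0.228%), a difference of 2.86 points (interval 1.21 to 6.003), which was 1.14 points (interval -0.389 to 5.05) between 45% and 55% GC. Among autosomal promoter summits it was at 1.18% of optimal and 0.385% of other regions, and away from promoters on X it was at 9 of 177 optimal summits (5.08%). All pooled regions held it at 0.457%. The 7 optimal summits are printed with 12 bases on each side, on the strand that reads CGCAGGG (in capitals), because neighbouring bases can be compared with one another. They lie at X:14525888-14525918 (minus), X:8811093-8811123 (minus), X:1345045-1345075 (plus), X:15707626-15707656 (minus), X:14490030-14490060 (plus), X:15373952-15373982 (plus) and X:5368435-5368465 (minus).
nspc-17: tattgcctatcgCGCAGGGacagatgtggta
R04E5.9: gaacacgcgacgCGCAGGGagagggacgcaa
ins-39: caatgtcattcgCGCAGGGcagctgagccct
nhr-48: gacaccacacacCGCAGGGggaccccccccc
his-24: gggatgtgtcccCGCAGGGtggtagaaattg
svh-5: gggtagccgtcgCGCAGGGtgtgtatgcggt
jkk-1: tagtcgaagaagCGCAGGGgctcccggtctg

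Of these 7 regions, those of *nspc-17* (pooled signal 159.9), *R04E5.9* (124.3) and *ins-39* (106.8), were among the 20 strongest on X. The others were *nhr-48*, a nuclear hormone receptor gene (69.1), *his-24*, a linker histone gene (47.7), *svh-5* (43.7) and *jkk-1*, a JNK pathway kinase gene (35.1). All 7 were matched in both replicates. The 3 other regions with the word lay at *daf-12*, *acl-4* and *npr-21*, with pooled signals of 13.1, 12.2 and 6.84. A match of 7 letters is a description of the sequence and not a bound site of the complex.

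Of the 2731 protein-coding genes on X, 1218 had a region in their promoter window and 243 had an optimal one. The share, 20% of the genes with a region, was close to the 20.6% of 6968 autosomal genes. Of the 243 genes, 237 had 1 optimal region and 6 had 2: *ain-1*, *nipi-3* (a Tribbles-like pseudokinase), *bet-2*, *mai-1* (an inhibitor of the mitochondrial ATPase), *nhr-1* and *svh-5*. Genes known by a sequence name alone made up 30.9% of the genes with an optimal region and 47.6% of those with other regions only. On 26 gene lists, 62 of the 243 genes appeared at least once.

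On lists chosen with earlier results of these data known, oxidative phosphorylation, traffic and chaperone genes had higher shares of optimal regions than all X genes. The Wilson intervals of these 3 shares lay above the 20% of all X genes. On the secretory and endocytic traffic list, 14 of 22 X genes with a region had an optimal one. Highest on the list were *trap-2* (86.3), *vha-12* (84.0), *sec-15* (81.5) and *aps-2* (63.0), the sigma subunit of AP-2. The endocytic genes *epn-1* (149.9) and *dpy-23* (129.7) were not on this list, and *dpy-23* was on that of the vulva and uterus. The *vha-12* gene encodes a subunit of the proton pump of acidic compartments. In oxidative phosphorylation it was 5 of 6: *asb-2* (69.3) and *asg-2* (31.3) of ATP synthase, *ucr-2.2* (64.5) and *ucr-2.1* (54.7) of complex III, and *sdha-1* (53.6) of succinate dehydrogenase. Among chaperones it was 5 of 8, with *hsp-3*, *pdi-6*, *dnj-14* (70.4) and *pdi-2* (60.4) the strongest. The intervals of these 3 shares were 43.0% to 80.3%, 43.6% to 97.0% and 30.6% to 86.3%. The share was 20% for all X genes with a region and, in the same order, 44.2%, 68.8% and 44.8% for the autosomal genes of these lists. With pooled regions strong in replicate 2 in place of the optimal ones the traffic count was 9, and with those strong in replicate 1 it was 10. Among regions strong in both replicates it was 7 of the 22, a count added after seeing the data. The counts of oxidative phosphorylation and chaperones were 4 or 5 each. No intervals were computed for these alternative counts. Translation factors had 2 of 3, with an interval of 20.8% to 93.9% that also lay just above the 20%. The intervals were not adjusted for the 26 lists, and because of how the lists were chosen they are a description only. The 2 genes were *eef-1A.2* and the cap-binding factor gene *ife-2* (51.4), of which *ife-2* had no match within 100 bp in replicate 1. Only 2 ribosomal protein genes lie on X and 1 of them, *rpl-11.2*, had an optimal region, against 86.1% of 79 autosomal ones. The proteasome and ubiquitin list had 0 of 2 on X (interval 0% to 65.8%), against 49.1% of 53 autosomal genes.

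Among sex determination and dosage compensation genes, 3 of the 6 with a region had an optimal one. These were *sdc-1* (44.2), *ceh-39* (40.02), a homeobox X-signal gene, and *sdc-2* (31.4), whose region was weak in replicate 1 as given above. The other 3 had weak regions: *fox-1*, an RNA-binding X-signal gene, had 9.30, *dmd-4* had 6.20 and *sex-1*, a nuclear receptor X-signal gene, had 6.19. The interval of 3 of 6, 18.8% to 81.2%, includes the 20% of all X genes.

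Of regulators, *ceh-39* was the only 1 of 9 homeobox genes on X whose region was optimal, and of the 26 on that list 17 had no region. Of the rest, *ceh-89* (9.27), *ceh-54* (9.13), *vab-15* (9.12), *ceh-90* (7.34), *ceh-30* (6.26), *ceh-63* (6.03), *vab-3* (5.97) and *ceh-31* (5.59) had weak regions. The shares of this and the next 5 lists all had Wilson intervals that include the 20% of all X genes. Nuclear hormone receptors had 5 of 18 (27.8%, against 9.09% of autosomal genes on the list), led by *nhr-48* (69.1), *nhr-32* (54.6), *nhr-1* (52.8) and *nhr-255* (50.01). The *nhr-255* summit lay within 100 bp of a tRNA gene. The bHLH and zinc-finger list had 3 of 14 (21.4%, against 20% of autosomal genes): *mdl-1* (76.5), a MAD-like factor, *lin-14* (39.5), a regulator of larval timing, and *lsy-2* (34.1). The chromatin and histones list had 5 of 14 (35.7%, against 47.1%). Highest by signal among the genes placed on that list were *bra-1* (84.2), *his-24*, *lin-15B* (39.2) and *set-20* (37.8). Whether each of them acts at chromatin was not tested. The *lin-15B* and *set-20* regions had no match within 100 bp in replicate 1. With pooled regions strong in replicate 1 in place of the optimal ones the chromatin count was 2. RNA-binding proteins had 3 of 8 (37.5%, against 48.2%), *puf-9*, *ain-1* (90.6) and the poly(A)-binding gene *pab-2* (42.0), and kinases had 4 of 14 (28.6%, against 26.8%): *mbk-1* (68.6), *kin-29* (66.8), *cdk-11.2* (42.2) and *jkk-1* (35.1).

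Of the vulva and uterus, signalling, intraflagellar transport and neuronal gene lists, none stood above the 20% of all X genes beyond its interval. Ion channels and neuropeptide and amine receptors stood below it, on lists chosen with earlier results of these data known. The vulva and uterus list had 3 of 10 (interval 10.8% to 60.3%): *dpy-23* (129.7), the AP-2 subunit gene named above, *egl-17* (44.1) and *lin-15B* (39.2). Of these, *egl-17* is an FGF gene of vulval precursor cells and sex myoblast guidance. Its summit lay 102 bp downstream of the start and within 100 bp of a tRNA gene. The *lin-15B* region had no match within 100 bp in replicate 1 and ranked 845 in replicate 2. The Wnt, TGF-beta and other signalling list had 2 of 9, *akt-2* (40.9) and *aak-2* (28.5), and intraflagellar transport had 3 of 9, *dyf-11* (36.1), *ifta-1* (29.0) and *ift-81* (28.7). The *ift-81* region, shared with *ags-3*, ranked 1178 in replicate 2 and 14858 in replicate 1. Of neuronal genes, 1 of 7 synaptic genes (*syd-2*, the liprin-alpha scaffold, 57.1), 1 of 27 ion channel genes (*glr-6*, a glutamate receptor, 31.3; interval 0.657% to 18.3%) and 1 of 21 neuropeptide and insulin genes (*ins-39*) had an optimal region. The *glr-6* region is shared with *asg-2* and had no match within 100 bp in replicate 1. None of 22 neuropeptide and amine receptor genes had one, which at 3 genes of the total allows a share of up to 13.6% (Wilson upper limit 14.9%). The autosomal shares were also low for ion channels (4.41%), these receptors (3.33%) and neuropeptides and insulins (0%), but not for synaptic genes (25.6%). For the vulva and uterus, signalling and intraflagellar transport lists they were 23.5%, 11.1% and 22.4%.

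Lists of differentiated tissues had low counts, but all 6 Wilson intervals include the 20% of all X genes. Muscle structure had 1 of 13 (interval 1.37% to 33.3%), the actin gene *act-4* (50.6), against 12.5% of autosomal genes on that list. Detoxification and lipid metabolism had 1 of 14 (interval 1.27% to 31.5%), the transporter gene *mrp-2* (48.2), against 11.4%. Optimal regions were at 0 of 11 basement membrane, 0 of 10 collagen, 0 of 6 chemoreceptor and 0 of 5 intestine genes. At 3 genes of each total these counts allow shares of up to 27.3%, 30%, 50% and 60%, and the Wilson intervals end at 25.9%, 27.8%, 39.0% and 43.4%. The autosomal shares of these 4 lists were 5.56%, 3.45%, 3.37% and 2.56%. In whole animals, binding in a few cells and weak binding in many cannot be told apart, so a weak region at a gene used in few cells does not show that LIN-11 is absent there.

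**Figure D5:**
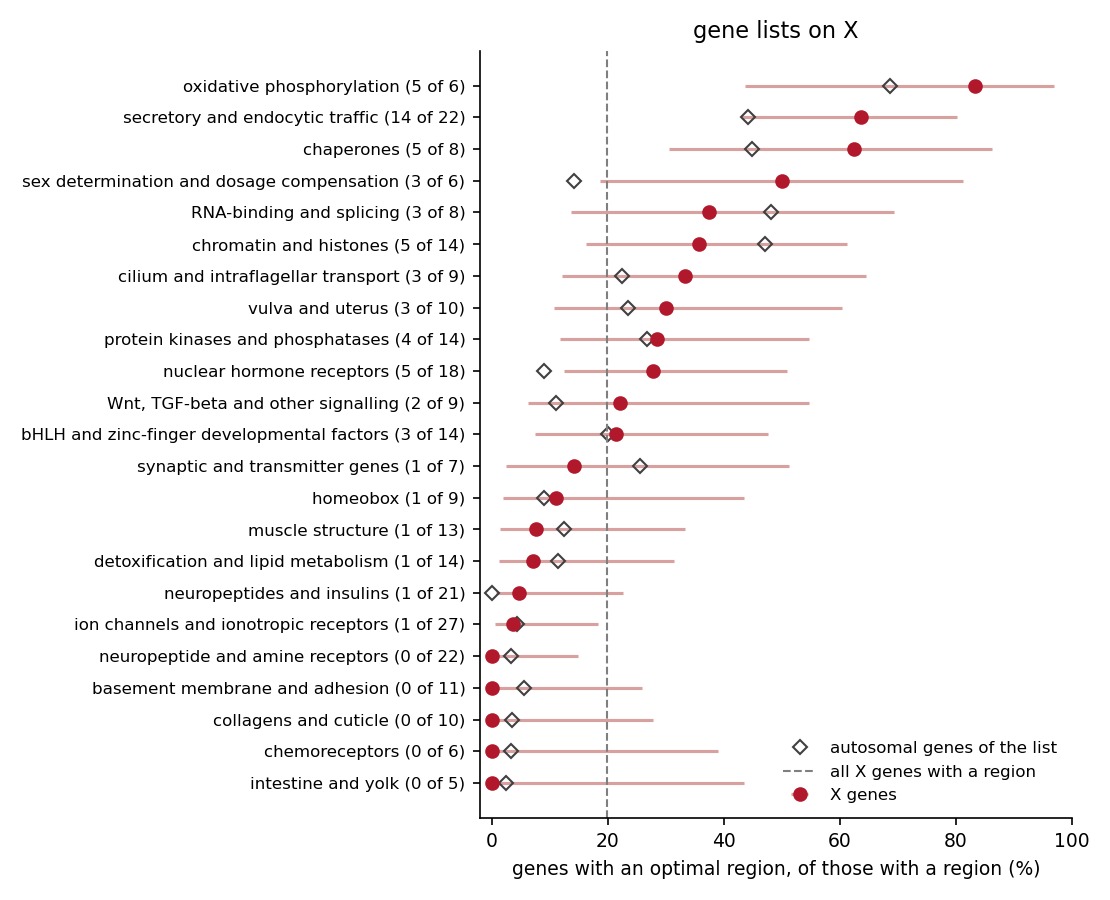
Share of X genes with an optimal region among those with any region in the promoter window (x axis, %) for lists with at least 5 such genes (y axis, counts in brackets). Red points have Wilson 95% intervals, open diamonds give the autosomal genes of the same list, and the dashed line marks all X genes, 20%. Oxidative phosphorylation (5 of 6) is highest, and 5 of the lists drawn stand at 0.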

How the data were processed

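Per the deposited notes, the authors called regions on each replicate and on the pooled reads against a control and derived the optimal list by the irreproducible discovery rate procedure; the sources used here do not give the aligner, caller or versions. Each input list holds exactly 30000 regions, with background among them. The authors' signal value (column 7) has no stated scale and was used only within a list. The authors' −log10 q-value (column 9) reaches a ceiling of 3.54 in the pooled list and was not used for ranking.

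The summit position was computed by adding the deposited offset to the start. Regions were joined to Ensembl release 115 (WBcel235, the same assembly as ce11), and on all 6 chromosomes regions and genes end within the reference sequence. Lists on ce10 were not used. Python 3.11.15 with pandas 2.3.3 and numpy 2.4.6 was used, and the window, match, word and interval steps were tested on simulated data. Shares carry Wilson intervals and differences Newcombe intervals; with 1 group there was no test between conditions.

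The members, the 26 gene lists and the words were chosen with earlier results of these data known. Named were the genes at the 20 strongest optimal regions, up to 4 per list by signal, the sex determination and homeobox genes, genes with several optimal regions, the strongest shared regions, 5 regions on each side of the end of the optimal list, the regions with the largest rank differences between replicates, up to 3 unmatched ones and 8 words.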

Additional observations from a re-analysis of the deposited data

How the results depend on the processing

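The optimal share of X promoter regions, 14.7%, was 17.7% with a window of 500 bp upstream and 100 bp downstream, 12.1% with 2000 bp upstream, 24.1% among the 15000 pooled regions of highest signal and 7.98% when the stronger 50% of the optimal regions stood for them. The median summit position, -252 bp, was -187 bp and -314 bp with the shorter and the longer window. A match within 50 bp found 81.1% of optimal regions in replicate 1 and 88.5% in replicate 2, and a match within 200 bp found 98.7% and 100%. With 100 bp on each side of the summit the median GC content of optimal summits was 48.8%, against 52.5%, and the GAGAGA difference 30.4 points, against 22.3. The number of X genes with an optimal region, 243, was 124 with the stronger 50%. In 2 alternatives chosen after seeing the data, 144 genes had an optimal region strong in both replicates, and the GAGAGA difference between 45% and 55% GC was 22.5 points.

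In further alternatives, pooled regions with a match among the 1917 strongest regions of a single replicate stood in place of the optimal ones. The candidate regions, their summits and their sequences still came from the pooled reads. Neither replicate was therefore fully left out, and these values are not an independent check. The share was 14.3% with regions strong in replicate 2 and 12.5% with those strong in replicate 1. In the same order, the median positions were -228 and -227 bp, and the genes 239 and 206. The GAGAGA difference was 20.2 and 18.9 points and the difference in shared regions 6.29 and 5.47 points.

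Of single words, the sign of the CACGTG difference turned. It was -0.839 points, and ranged from -0.223 to 0.218 points when regions strong in replicate 1 or in replicate 2 replaced the optimal ones. It was 0.511 points with 100 bp on each side and 0.482 points between 45% and 55% GC. The cause was not tested. The differences of the other 9 fixed words had the same sign in each alternative run. Several were over 1.5 times smaller between 45% and 55% GC or when regions strong in replicate 1 replaced the optimal ones. Such values stand beside the words in the results, but none is given there for TAATTG. The TAATTG difference, -2.92 points, ranged from -5.47 to -1.64 points over its 7 alternatives. No paired analysis was possible because there is 1 group. Read depth is unknown, so the depth that limits the weaker regions cannot be given, and intervals cover region counting only.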
